A study of Bos taurus with 16 samples.

Results

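The genes described here encode antimicrobial proteins that neutrophils store in their granules: myeloperoxidase (MPO), azurocidin (AZU1), bactericidal/permeability-increasing protein (BPI), lactoferrin (LTF), peptidoglycan recognition protein (PGLYRP1) and the bovine cathelicidins (CATHL). Their transcripts were measured in CD14+ cells, which were sorted by flow cytometry from the endometrium and from the peripheral blood of the same 4 pregnant cows. Animal 1 was at day 164 of pregnancy, animal 2 at day 239, animal 3 at day 242 and animal 4 at day 248. Since each day was represented by 1 cow, the day of pregnancy and the animal cannot be told apart. There were no nonpregnant cows and no treatments. The endometrial cells came from enzymatically dispersed interplacentomal tissue. In both tissues the mononuclear fraction was collected from a density gradient before sorting, a step that leaves most granulocytes behind. Endometrial and blood RNA of an animal were hybridized together on an Agilent 2-colour array, with 2 technical replicates per animal, so that 16 labeled samples on 8 arrays represent 8 biological samples.

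Members were found by gene name, or by the symbol in brackets in the probe description. Of the 21475 probes on the array, 10 were found in that way. MPO and AZU1 were found by the symbol in brackets, as predicted genes. A further 2 were found through their accession: the probe that the array calls PGLYRP is PGLYRP1, and the probe that it calls CAMP has the accession of CATHL3. The 12 probes are 1 each for MPO, AZU1, BPI, LTF, PGLYRP1 and CATHL1 to CATHL7. RefSeq now uses the symbol CAMP for the gene that the array calls CATHL7. Each probe was spotted 2 times per array.

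Neutrophils make these proteins in the bone marrow, in an order. Myeloperoxidase, azurocidin and BPI are made first and are packed in azurophil granules, whereas lactoferrin and the cathelicidins are made later, at the stage of the myelocyte, and go to granules that are released more readily. Mature blood neutrophils hold the proteins but little of most of the transcripts. In cattle, the cathelicidins and PGLYRP1 are stored in large granules that are particular to ruminants. Some of the proteins are also made outside the neutrophil lineage. Lactoferrin is secreted by glandular epithelium of the uterus and mammary gland, and BPI is also made by some epithelia.

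Sequences of 5 of the probes are given to show what the measurements rest on. The probes are 60 bases long and no member probe shared more than 14 consecutive bases with any other probe on the array, although the cathelicidin genes resemble each other over much of their length. Cathelicidins have a conserved precursor followed by an antimicrobial peptide that differs between genes and that holds many arginines or lysines and, in CATHL4, tryptophans. Below, 3 of the cathelicidin probes are written 5′ to 3′ with codons for arginine, lysine and tryptophan in capitals, read in the frame with most such codons before a stop.
CATHL4: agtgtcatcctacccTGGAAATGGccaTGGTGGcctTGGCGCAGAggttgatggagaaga
CATHL5: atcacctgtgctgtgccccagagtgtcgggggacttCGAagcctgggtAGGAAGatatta
CATHL7: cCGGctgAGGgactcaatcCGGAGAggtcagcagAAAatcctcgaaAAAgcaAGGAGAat
The CATHL4 probe held 5 tryptophan codons and 3 codons for arginine or lysine in 16 codons before a stop. The CATHL7 probe held 8 codons for arginine or lysine in 19 codons, and the CATHL5 probe 3 in 20 codons, of which all lay in its last part. Since the frame was chosen for such codons, these counts are descriptions only. For BPI and LTF, the pair of members that varied most between animals, the first 30 bases of the probes are given.
BPI: ttcttccaagggctaaggctgcagggacat
LTF: ctctcccttcctgaagtcggatttttgcca
In the RefSeq gene table of another assembly than the one the array was designed on, the 7 cathelicidin genes lie within a run of 10 protein-coding genes, and LTF is on the same chromosome.

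Levels are log2 normalized intensities after background correction with an added offset, so that a probe without signal reads about 6. The 2701 probes that were not well above background in any channel had a median level of 5.99, with 5th and 95th percentiles of 5.91 and 6.11. The 16654 probes that were tested had a median level of 8.16. The offset compresses differences among dim probes, and levels were compared between samples for the same probe only. Because arrays measure a pool of cells, fewer cells of a type and less RNA per cell cannot be told apart. Mean values are for the 4 animals, and technical replicates were averaged first.

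The samples did not carry the transcripts of the labeled cell type to a similar extent. CD14 transcript was 12.17 in endometrium and 14.24 in blood of animal 1. In animals 2, 3 and 4 it was 6.41, 8.14 and 6.82 in endometrium and 6.30, 7.63 and 6.69 in blood. Thus, CD14 was abundant in both samples of animal 1 only and was close to background in both samples of animal 2. Conversely, CD3E, a chain of the T cell receptor complex, was 8.81 and 7.19 in endometrium and blood of animal 1 and between 11.26 and 13.43 in the other 6 samples. Levels of CD79A, which encodes a chain of the B cell receptor, were highest in blood of animal 3, at 13.71. All 10 tested epithelial genes and all 7 trophoblast genes reached their highest level in endometrium of animal 3, whereas all 6 stromal genes did so in endometrium of animal 1. Of all tested probes, 22.1% were highest in endometrium of animal 3 and 10.1% in endometrium of animal 1. KRT18, an epithelial keratin, was 13.56 in endometrium of animal 3 and from 9.64 to 10.82 in the other endometrial samples. The part of other cells in the results below was not tested.

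Of the 12 probes, 8 had a signal well above background in 4 or more of the 8 channels in endometrium or in blood, and were tested. None of the 8 was differentially expressed between endometrium and blood (limma, adjusted p up to 0.05 with a change of more than 2-fold), against 11 of 16654 probes on the whole array, or 0.0661%, of which all were higher in endometrium. None of the 8 passed an unadjusted p of 0.05, against 15.2% of all tested probes, and the smallest unadjusted p of the limma test was 0.0741, for LTF. By the methods' analysis of variance, none passed with or without adjustment. The adjusted p values of the 8 ranged from 0.365 to 0.997. For each of the 8, the levels of the endometrial samples overlapped with those of the blood samples. Among all tested probes, 2.4% did not overlap and were higher in endometrium and 3.02% did not overlap and were higher in blood. The median log2 difference, endometrium minus blood, was 0.02 for the members and -0.02 for all tested probes. The SD of that difference over the 4 animals had a median of 0.60 for the members and 0.68 for all tested probes.

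**Figure D1:**
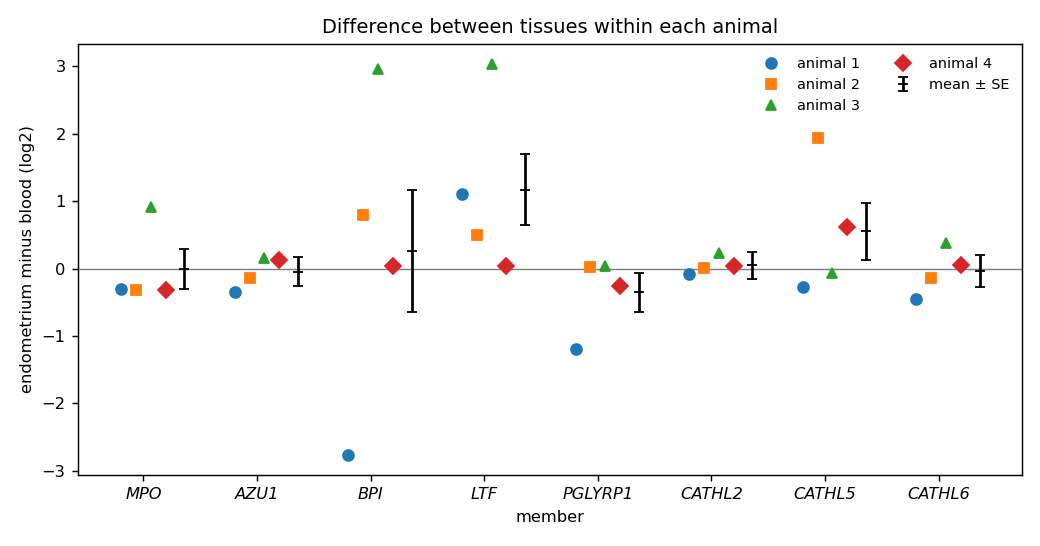
Difference in log2 level between endometrium and blood within each of the 4 animals (coloured symbols) for the 8 tested members, with the mean and its standard error from limma in black. Only for LTF are all 4 animals above 0, and for BPI animal 1 lies at -2.77 and animal 3 at 2.97.

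BPI binds the lipopolysaccharide of Gram-negative bacteria and kills them. It varied between animals more than any other member. Levels in endometrium were 10.79, 7.29, 11.40 and 6.14 in animals 1 to 4, and levels in blood were 13.56, 6.50, 8.43 and 6.10. BPI was high in both samples of animal 1 and in endometrium of animal 3, lower in blood of animal 3, and at background in both samples of animal 4, where it was well above background in 1 of 4 channels only. The blood of animal 1 exceeded the blood of animal 3, the next highest blood sample, 35.0-fold on the offset scale. In the authors' normalized values, which have no added offset, it did so 46.9-fold. The range over the 4 blood samples, 7.46 log2 units, was the 11th largest of the 16654 tested probes, and the range over the 4 endometrial samples, 5.26, was the 258th largest. Technical replicates of a sample differed by at most 0.28 log2 units for BPI, and the median of that largest difference over all tested probes was 0.23.

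The tissues did not rank in the same way in the animals. In animal 1, BPI was 6.82-fold higher in blood than in endometrium, whereas in animal 3 it was 7.83-fold higher in endometrium than in blood. These folds are on the offset scale, and in the authors' normalized values they were 7.21 and 10.1. The log2 differences were -2.77, 0.79, 2.97 and 0.04 in animals 1 to 4. The mean was 0.26 ± 0.90 (SE, n = 4 animals, limma adjusted p = 0.929), with a 95% confidence interval from -2.02 to 2.53, so that changes of several fold in either direction were not excluded. The sign depended on single animals: the mean was 1.27 without animal 1 and -0.65 without animal 3. In the authors' own normalized values the order of the samples was the same from the highest down to blood of animal 4, the lowest, with BPI at 15.31 in blood of animal 1 and at 4.57 in blood of animal 4.

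MPO, the peroxidase that makes hypochlorous acid, was well above background in all 16 channels but at a low level. In endometrium, it was 6.26, 6.48, 7.39 and 6.53 in animals 1 to 4, and in blood it was 6.56, 6.80, 6.47 and 6.85. On this scale, which the offset compresses, blood was higher in animals 1, 2 and 4 by 0.30 to 0.32 log2 units. In animal 3 endometrium was higher by 0.92. In the authors' normalized values, MPO was 5.35, 6.32, 8.47 and 6.64 in endometrium and 6.94, 7.35, 6.45 and 7.51 in blood. The mean log2 difference was -0.01 ± 0.30 (SE, n = 4, limma adjusted p = 0.997).

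AZU1 encodes a protein related to the granule serine proteases that has lost enzyme activity but kills bacteria and attracts monocytes. It was also well above background in all channels and varied least of the azurophil members. Levels were 6.32, 6.80, 6.88 and 6.83 in endometrium and 6.67, 6.93, 6.71 and 6.70 in blood of animals 1 to 4. All samples but endometrium of animal 1 lay within 0.26 log2 units of each other. On the offset scale, blood was slightly higher in animals 1 and 2, and endometrium was slightly higher in animals 3 and 4. In the authors' normalized values, AZU1 was 5.66, 7.17, 7.39 and 7.33 in endometrium and 6.90, 7.54, 7.22 and 7.05 in blood. The mean log2 difference was -0.05 ± 0.21 (SE, n = 4, limma adjusted p = 0.950).

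LTF encodes lactoferrin, a protein that withholds iron from bacteria and is stored in specific granules. In animals 1 to 4, LTF was 8.35, 6.61, 9.87 and 6.06 in endometrium and 7.24, 6.10, 6.82 and 6.03 in blood. It was not well above background in blood of animals 2 and 4 or in endometrium of animal 4, so that the difference in animal 4 was between samples at background. Endometrium of animal 3 was highest. It exceeded blood of animal 3 by 3.04 log2 units on this scale, which the offset compresses, and by 5.59 in the authors' normalized values. It exceeded endometrium of animal 1 by 1.52 and 1.94 on the same scales. In animal 1, endometrium exceeded blood by 1.11 and 1.65.

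LTF was the only tested member with the same sign in the 4 animals, which was true of 24.8% of all tested probes. The log2 differences were 1.11, 0.50, 3.04 and 0.03, and their mean was 1.17 ± 0.53 (SE, n = 4, limma unadjusted p = 0.0741, adjusted p = 0.365), with a 95% confidence interval from -0.16 to 2.50. Its unadjusted p was 0.0145 with the authors' normalized values, and 0.0322 in a fit to the 8 arrays with a slide term in which the 2 arrays of an animal were correlated repeats of a random block. The adjusted p values were 0.215 and 0.187 (limma). Unadjusted limma p was also below 0.05 with the processed signal (0.0199), an offset of 16 (0.0464), a dye term (0.0407) and without animal 4 (0.0491). By limma or analysis of variance, it was above 0.05 in the other alternatives in which LTF was fitted. Without animal 3 the mean was 0.55. In the authors' normalized values, which have no added offset, the mean difference was 2.75 ± 0.85 (SE, n = 4, limma adjusted p = 0.215). The 10 epithelial genes were also highest in endometrium of animal 3, and their summed level was 13.64, 13.89, 16.75 and 15.71 in endometrium of animals 1 to 4 and from 10.32 to 11.78 in blood. Endometrium of animal 4, where LTF was at background, had the second highest sum. SERPINA14 was 15.61 there. The median level of the 10 genes was 9.85, 8.78, 12.50 and 8.77 in endometrium of animals 1 to 4. It was alike in animals 2 and 4, whereas LTF was well above background in endometrium of animal 2 and not of animal 4. Over the 8 samples, of which both of an animal share arrays, the Pearson correlation of LTF was 0.848 with KRT18, 0.720 with BPI, 0.694 with DCN, 0.60 with CSF1R, a receptor of monocytes and macrophages, 0.408 with CD14 and -0.716 with CD79A. The part of other cells in the level of LTF was not tested.

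PGLYRP1 binds bacterial cell wall peptidoglycan. Its levels were 6.37, 7.36, 7.19 and 7.27 in endometrium and 7.57, 7.34, 7.15 and 7.53 in blood, and all were well above background. Only endometrium of animal 1 stood apart, 1.19 log2 units below blood of that animal, or 2.74 in the authors' normalized values. In the other 3 animals the tissues differed by at most 0.26 log2 units. The mean log2 difference was -0.35 ± 0.29 (SE, n = 4, limma adjusted p = 0.592), and it was -0.069 without animal 1. In the authors' normalized values it was -0.80 ± 0.61 (adjusted p = 0.551). Across the 8 samples, PGLYRP1 had a Pearson correlation of -0.903 with DCN, a proteoglycan of stroma that was 14.29 in endometrium of animal 1. Among the marker genes compared with PGLYRP1, this correlation was the largest in size, with 0.616 for CD79A and -0.548 for CSF1R. Endometrium of animal 1 had both the highest DCN and the lowest PGLYRP1 of the 8 samples. AZU1, which was also lowest there, had a correlation of -0.723 with DCN. In endometrium of animal 3, DCN was 9.93 and PGLYRP1 was 7.19. The part of other cells in the level of PGLYRP1 was not tested.

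**Figure D2:**
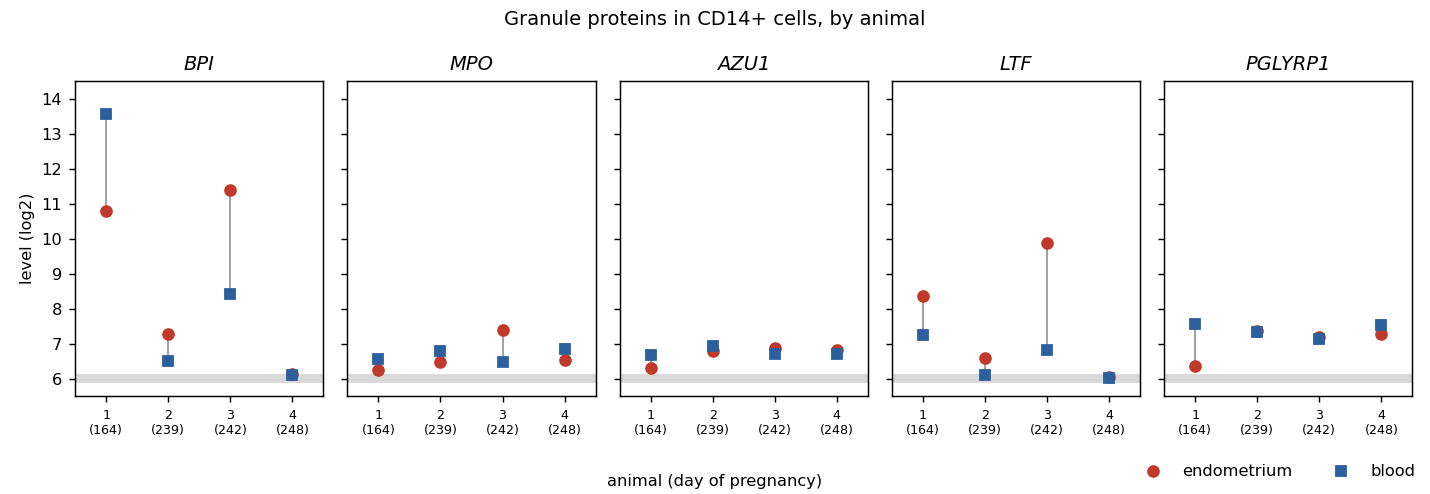
Levels (log2) of BPI, MPO, AZU1, LTF and PGLYRP1 in endometrium (circles) and blood (squares) of each animal, with the day of pregnancy in brackets below the animal number. A line joins both samples of an animal, and the grey band spans 5.91 to 6.11, the 5th to 95th percentile of probes without signal. BPI ranges from 6.10 to 13.56, whereas MPO, AZU1 and PGLYRP1 lie between 6.26 and 7.57 in every sample.

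The cathelicidins were at or near background in most samples. CATHL1, CATHL3, CATHL4 and CATHL7 were not well above background in any of the 16 channels and were not tested. Their levels lay between 5.89 and 6.15. This includes CATHL4, the gene of the tryptophan-rich peptide indolicidin, and CATHL1, the gene of the small cyclic peptide bactenecin. An array signal at background does not show that the transcript was absent.

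CATHL2 and CATHL6 had weak signal. CATHL2 encodes a peptide rich in proline and arginine that enters bacteria and blocks protein synthesis. Its levels ranged from 6.12 to 6.46 in endometrium and from 6.21 to 6.23 in blood, and it was well above background in 6 of 8 channels of each tissue. CATHL6, which encodes a helical myeloid peptide, was well above background in all channels and ranged from 6.19 to 6.71 in endometrium and from 6.33 to 6.64 in blood. Mean log2 differences were 0.05 ± 0.20 for CATHL2 and -0.04 ± 0.23 for CATHL6 (SE, n = 4, limma adjusted p = 0.945 and 0.964). In the authors' normalized values they were 0.05 ± 0.56 and -0.30 ± 0.62 (SE, n = 4, limma adjusted p = 0.981 and 0.854).

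CATHL5, which encodes another helical myeloid peptide, was the only cathelicidin with a level above 7. Levels in endometrium were 6.19, 8.34, 6.13 and 6.79 in animals 1 to 4, and levels in blood were 6.46, 6.40, 6.20 and 6.18. Endometrium of animal 2 was highest and exceeded blood of that animal by 1.94 log2 units, or by 3.93 in the authors' normalized values, which are not compressed by an offset. Endometrium of animal 4 exceeded its blood by 0.61 and 2.55 on these scales, but that blood sample was well above background in 1 of 2 channels only. In animal 1 blood was slightly higher on the offset scale. In the authors' normalized values it was 6.40 in blood and 4.89 in endometrium of animal 1, and both samples were well above background. In animal 3 blood was slightly higher on the offset scale, and both samples were not well above background. The mean log2 difference was 0.55 ± 0.42 (SE, n = 4, limma adjusted p = 0.560), with a confidence interval from -0.50 to 1.61, and technical replicates differed by at most 0.51. Without animal 2 the mean was 0.09. In the authors' normalized values the mean of the 4 animals was 1.33 ± 0.90 (SE, limma adjusted p = 0.502). The animal with the highest CATHL5 had CD14 close to background in both tissues. Its endometrial sample held the highest levels of 5 of 6 T and natural killer cell genes and of all 3 erythroid genes. That sample was highest for 13.7% of all tested probes. HBB, a globin gene, was 13.75 there and at most 8.98 in the other 7 samples. Over the 8 samples, the Pearson correlation of CATHL5 with CD3E was 0.354. The part of other cells in the level of CATHL5 was not tested.

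**Figure D3:**
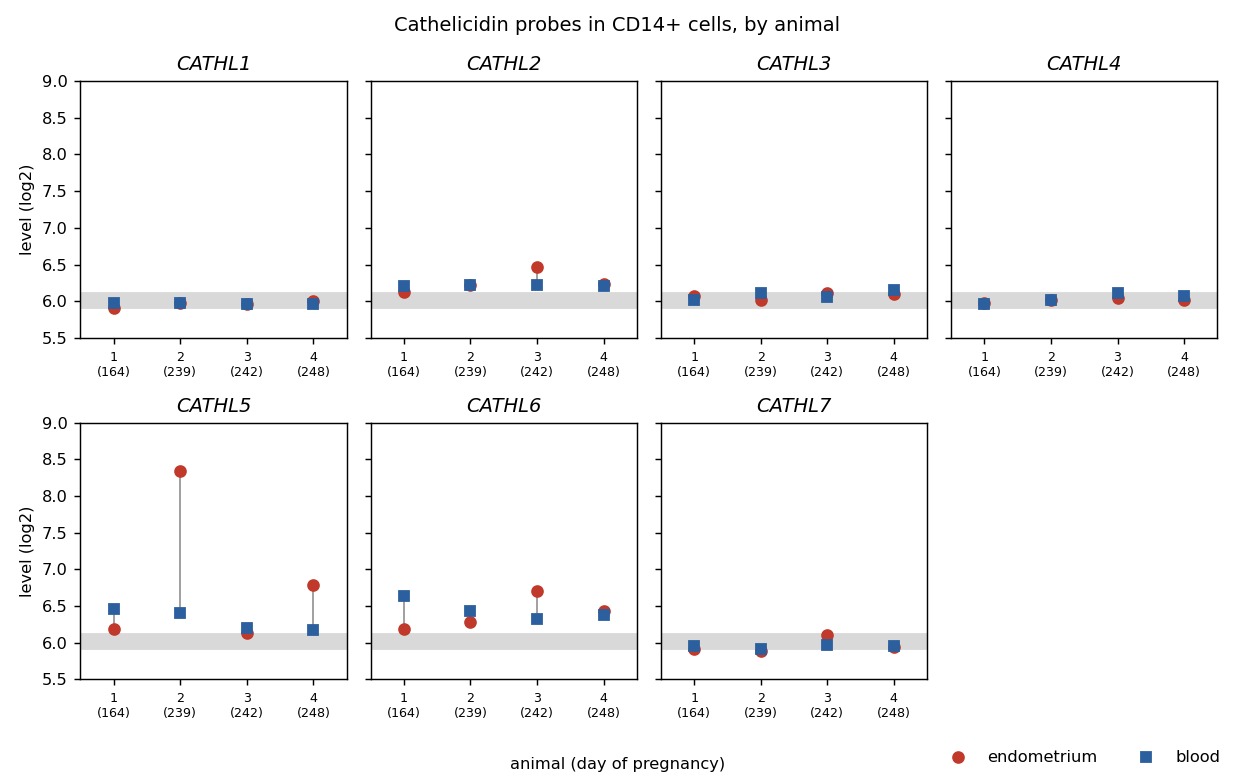
Levels (log2) of the 7 cathelicidin probes in endometrium (circles) and blood (squares) of each animal, with the day of pregnancy in brackets. The grey band spans 5.91 to 6.11, the 5th to 95th percentile of probes without signal, and only CATHL5 rises above 7, at 8.34 in endometrium of animal 2.

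Weak members shared a pattern with other dim probes. MPO, AZU1, PGLYRP1, CATHL2 and CATHL6 had their lowest level in endometrium of animal 1, and MPO, LTF, CATHL2 and CATHL6 had their highest in endometrium of animal 3. Of the 6571 tested probes with a mean level under 7.5, 31.4% were lowest in endometrium of animal 1 and 31.5% were highest in endometrium of animal 3. The lowest and highest samples of the weak members are to be read against that background.

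Genes of the same granules and of the same cells were examined from fixed lists. None of their members was differentially expressed by adjusted p. The background for the unadjusted test (p up to 0.05 with more than 2-fold change) was 5.28% of tested probes higher in endometrium and 5.09% higher in blood. Of 8 azurophil granule companions, 5 were tested, with 2 higher in endometrium and 1 higher in blood by the unadjusted test. The genes CD63, a granule membrane protein that all cells use in lysosomes, and CTSC, the protease that activates granule serine proteases, had log2 differences of 3.00 ± 0.56 and 1.23 ± 0.45 (SE, n = 4, limma adjusted p = 0.249 and 0.303). SRGN, the proteoglycan core of granules, had a log2 difference of -1.51 ± 0.36 (adjusted p = 0.263). For the probe described as lysozyme (LYZ) the difference was -1.12, with the highest level, 15.39, in blood of animal 1, and -0.0044 without animal 1. The cathepsin G probe was not tested since it was well above background in 3 of 8 channels of each tissue.

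Of the specific and gelatinase granule companions, 15 of 18 were tested and none passed the unadjusted test with a fold over 2 in either direction, and the median log2 difference was 0.10. Without animal 1 the median was 0.20. HP, which encodes haptoglobin, had a log2 difference of -1.29, and of -0.02 without animal 1, where it was 14.03 in blood against at most 6.74 in blood of the other animals. TCN1, a vitamin B12-binding protein, had a difference of 1.20 and was highest, at 10.38, in endometrium of animal 3. SLPI, a protease inhibitor made by epithelium and neutrophils, differed by 1.12 with levels of 9.40 and 8.15 in endometrium of animals 3 and 4 and at background in both samples of animals 1 and 2. LCN2, a siderophore-binding protein, differed by -1.11 and was highest in blood of animal 3. MMP8, the neutrophil collagenase, was not above background in any channel.

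All 10 measured genes of the neutrophil surface and cytosol were tested, and 9 had a lower mean in endometrium. The median log2 difference was -0.67, with 1 gene higher in endometrium and 1 higher in blood by the unadjusted test. MME, an endopeptidase that is also made by stromal cells, was the one higher in endometrium, by 4.40 ± 0.61 (SE, n = 4, limma adjusted p = 0.167). The one higher in blood was the IL8RB probe for an interleukin-8 receptor, by a log2 difference of -1.08 ± 0.35 (adjusted p = 0.277). Differences for CSF3R, the receptor for granulocyte colony-stimulating factor, and S100A8, a calprotectin subunit, were -1.34 ± 0.88 and -1.30 ± 1.21 (adjusted p = 0.505 and 0.636). CSF3R was 12.79 in blood of animal 1, 7.98 in endometrium of animal 1 and from 6.29 to 6.65 in the other 6 samples. Blood of animal 1 held the highest level of 8 of the 10 genes, against 13.1% of all tested probes. Without animal 1, which was left out after the values were seen, the median log2 difference of the list was -0.10, 6 of 10 genes had a lower mean in endometrium, and differences were -0.18 for CSF3R and -0.34 for S100A8.

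Among the 8 tested relatives of the members, 6 had a higher mean in endometrium and none passed the unadjusted test with a fold over 2. The lipid-binding relatives of BPI differed by 1.14 for LBP, which hands lipopolysaccharide to CD14, and by 0.96 for PLTP, which transfers phospholipids. LBP was 11.33 in endometrium of animal 3 and at most 7.68 elsewhere. PGLYRP2 differed by -0.37. Lactoperoxidase, a relative of MPO, was not tested, and transferrin, a relative of LTF, differed by 0.13.

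Of the 7 tested defensins and other antimicrobial peptides, 5 had a higher mean in endometrium and none passed the unadjusted test with a fold over 2. In blood of animal 1, 4 of them were highest, against 13.1% of all tested probes. The median log2 difference was 0.23, and 0.71 without animal 1. S100A7 differed by -0.91, DEFB1 by 0.78, TAP by 0.74 and LEAP2 by 0.35. The tracheal antimicrobial peptide gene TAP was 10.77 in endometrium of animal 3, 7.45 in blood of animal 3 and at most 6.61 elsewhere. S100A7 was 11.13 in blood and 7.55 in endometrium of animal 1 and at most 6.25 elsewhere. Of the granule serine protease inhibitors, 3 were tested, and SLPI, A2M and SERPINB1 differed by 1.12, 0.11 and 0.09. Regulators of granulocyte development included 1 gene at unadjusted p with a fold over 2 in each direction: RARA, a retinoic acid receptor, at -1.56 ± 0.27, and CD34, a progenitor and endothelial protein, at 1.33 ± 0.53 (SE, n = 4, limma adjusted p = 0.237 and 0.328). KIT differed by 1.06 and RUNX1 by -0.82. CEBPE, the factor required for specific granules, was at most 6.61 in all samples.

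**Figure D4:**
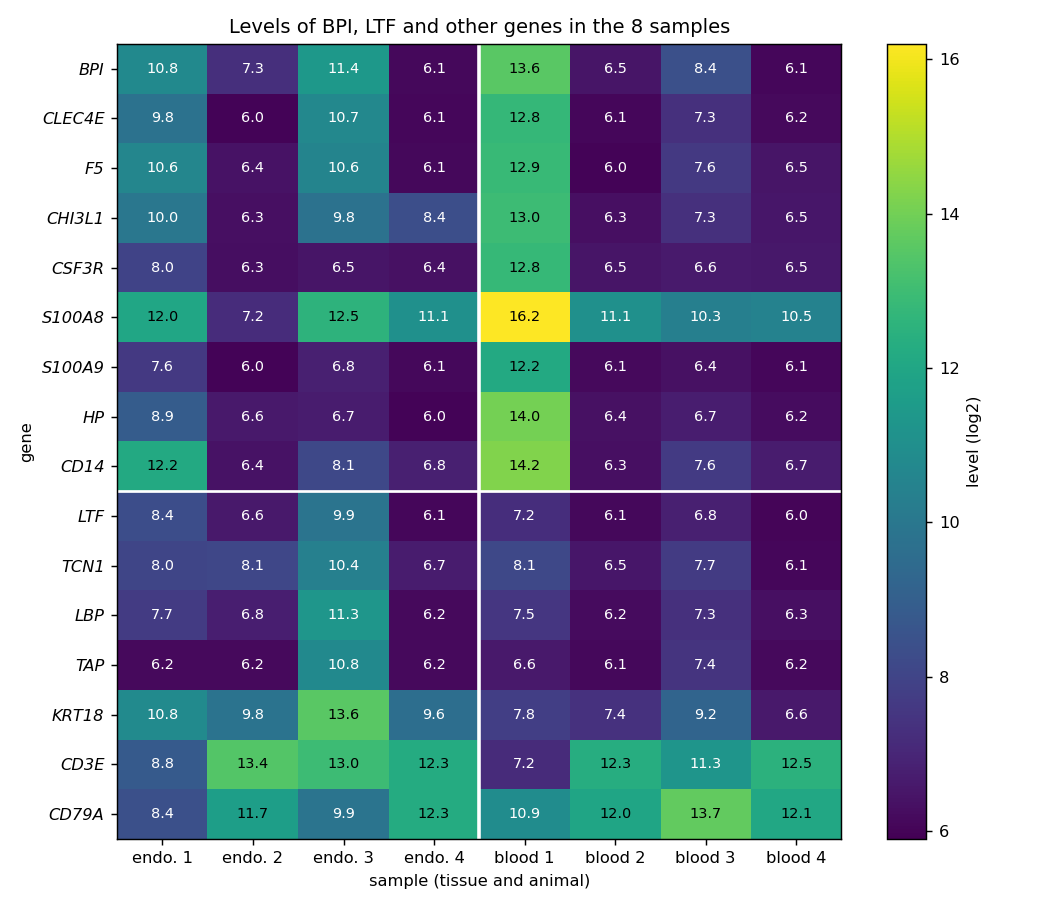
Levels (log2) of BPI and LTF with other genes in the 4 endometrial and 4 blood samples, to be read along rows. BPI and the genes down to CD14 are highest in blood of animal 1, whereas LTF, TCN1, LBP, TAP and KRT18 are highest in endometrium of animal 3, and CD3E is lowest in blood of animal 1.

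The genes with the most similar pattern to each member were found by Pearson correlation over the 8 samples. These are descriptions, since both samples of an animal share arrays and the highest of many correlations were taken. For BPI they were TNFSF13B (0.989), a B cell survival factor made by myeloid cells, F5 (0.988), which encodes coagulation factor V, and CLEC4E (0.987), a C-type lectin receptor of monocytes and neutrophils. CLEC4E was 12.78 in blood of animal 1, 10.70 and 9.79 in endometrium of animals 3 and 1, and at most 7.34 in the others. The pattern of BPI had a correlation of 0.907 with CHI3L1, 0.876 with CD14, 0.822 with S100A9 and -0.729 with CD3E.

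LTF was most like ADGRA3 (0.992), TANC2 (0.990) and BCAR1 (0.987). CATHL5 was most like a probe described as AMPH (0.983), LOC526089 (0.975) and SLC24A3 (0.971), all of which were highest in endometrium of animal 2. MPO was most like LOC540344 (0.980), TRMT9B (0.970) and GLYR1 (0.969), and AZU1 was most like AGRP (0.976), SNAI3 (0.971) and ADAMTS16 (0.961). PGLYRP1 was most like STIM1 (0.961), a probe described as TMEM123 (0.958) and SLC37A1 (0.957). For CATHL2 (WNT3 0.994, a probe described as BAI1 0.993, IGF2 0.992) and CATHL6 (UCN 0.970, CBLN2 0.970, GRID2IP 0.962) the similar probes were themselves dim. No member was among the 3 genes most like another member.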

How the data were processed

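RNA of endometrial and blood CD14+ cells of each of 4 pregnant cows was hybridized together on 8 Agilent arrays with 2 colours, on 2 slides, with dyes swapped between technical replicates in 3 animals. The members and lists were chosen with earlier results of these data known.

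The authors deposited scanner files with median intensity and local background per spot and dye, not normalized, with flags (other values) for outlier spots and for spots well above background, and a processed intensity. Feature Extraction 9.5 is named in the submitters' processing notes, and the file headers give 10.5.1.1. The authors also deposited a table of log2 values, normalized by lowess within and quantiles between arrays per the methods. Both files of each array were identical. By rank, all 16 columns of the value table equalled, within 0.001, the labeled dye in the scanner file that carries the number of the animal's other technical replicate, and scanner files were assigned accordingly.

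Median signals were background-corrected (normexp, offset 50), then loess-normalized within each array and quantile-normalized across the 16 channels (limma 3.58.1, R 4.3.3, statmod 1.5.0). Control spots and 3 to 20 outlier spots per array were left out. Values were averaged over the spots of a probe and then over both arrays of an animal. The probes tested were well above background in at least 4 of 8 channels of a tissue. No spot was saturated. Ratios were tested against 0 with moderated statistics (lmFit, eBayes) over all 16654 tested probes with Benjamini-Hochberg adjustment, and calls required an adjusted p up to 0.05 with more than 2-fold change. The scripts were tested on simulated data. The ratio pairs samples by animal, as the labels state. The deviations of both tissues of an animal from the tissue means correlated at 0.209 to 0.618. Since both tissues of an animal share arrays, these correlations do not test the pairing. The number of animals and arrays limits the precision.

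Probes were named by accession (3519), gene identifier (9987), or gene name or synonym (383) in the RefSeq table, and 7586 kept the array's name. Where the identifier and the symbol in brackets gave different genes, the bracket was used. The text names every member, up to 4 genes with the largest difference in each list and the 3 probes most like each tested member. Other genes (CD14, CD3E, CD79A, KRT18, SERPINA14, DCN, HBB, MMP8, CEBPE, CHI3L1, S100A9, MMP9, CTSG, LPO, MSR1, C1QA and GATA2) were named after their values were seen. The lists were azurophil granule companions, specific and gelatinase granule companions, neutrophil surface and cytosol, relatives of the members, defensins and other antimicrobial peptides, granule serine protease inhibitors and regulators of granulocyte development, with markers of other cells. Alternatives were the authors' table, other background and normalization settings, other filters, 8-array fits with dye or slide terms and the animal as a random block (duplicateCorrelation), single technical replicates, leaving out each animal, an unpaired fit, the methods' analysis of variance and the files as attached.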

Additional observations from a re-analysis of the deposited data

Results flagged for a closer look

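In 52 groups of 4 samples examined, 24 of them for members, the highest or lowest sample stood far from the others in 11. Of the 24 groups for members 2 were flagged, where chance flags about 1 in 20 groups. The genes of the remaining groups were chosen with earlier results known, some after their values were seen. Their flags cannot be set against that share. The flagged groups for members were the log2 difference of MPO, with animal 3 at 0.92, and AZU1 in endometrium, with animal 1 at 6.32. Blood of animal 1 stood apart for HP (14.03), S100A8 (16.18), CD14 (14.24), CHI3L1 (12.95), CSF3R (12.79), S100A9 (12.16) and MMP9 (7.87), and endometrium of animal 1 for CSF3R (7.98). Endometrium of animal 3 stood apart for TAP (10.77).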

How the results depend on the processing

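No member was called under any alternative, so none was gained or lost. Over all tested probes, 11 were called and the count was 224 with the authors' value table, 171 with the processed signal, 6 without background subtraction, 66 with an offset of 16, 5 with loess only, 3 without a filter on dim probes, 43 with signal required in all 8 channels of a tissue, 796 with a dye term, 502 with a slide term, 20 and 5 with technical replicate 1 or 2 alone, 0 and 686 by the methods' analysis of variance with and without adjustment, and 0 with the files as attached. It was 4 with no replicate block, that is, without pairing by animal, and 0 when any 1 animal was left out (0 to 0), with 1544 to 2596 probes at an unadjusted limma p of 0.05. The cause was not tested, except that leaving out an animal leaves 3. By the match to the value table, the files as attached exchanged endometrium and blood in the 3 animals with swapped dyes. Their values therefore do not measure how the results depend on processing. With that exchange the sign turned for MPO (0.46), AZU1 (0.13), PGLYRP1 (0.37), CATHL5 (-0.59) and CATHL6 (0.23). With technical replicate 2 alone MPO was 0.022 and CATHL6 0.0011. Leaving out an animal gave ranges of -0.31 to 0.10 for MPO, -0.12 to 0.054 for AZU1, -0.65 to 1.27 for BPI, -0.016 to 0.093 for CATHL2 and -0.18 to 0.10 for CATHL6, all spanning 0, and of -0.48 to -0.069 for PGLYRP1 and 0.091 to 0.83 for CATHL5. LTF was higher in endometrium by 0.55 to 2.88 in the alternatives other than the files as attached. Its adjusted p there was 0.187 to 0.663 by limma or analysis of variance. With the files as attached it was 0.35, a value in which the tissues of the 3 dye-swapped animals were exchanged. Signal over background kept 4 cathelicidins from being tested, and BPI, LTF, CATHL2 and CATHL5 could not be fitted where signal in all 8 channels was required.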

Other observations

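Markers of other cells complete the account of the samples. Of 7 trophoblast genes, 5 were differentially expressed by adjusted p and all were higher in endometrium. Of 10 epithelial genes, 7 were higher in endometrium at an unadjusted limma p of 0.05 with a fold over 2. So were 6 of 8 monocyte and macrophage genes, 3 of 6 T and natural killer cell genes and 2 of 6 stromal genes. By that test 3 of 5 B cell genes were higher in blood. Among all tested probes, 5.28% were higher in endometrium and 5.09% higher in blood by it. The monocyte genes CD14 and LYZ had a lower mean in endometrium, with log2 differences of -0.33 and -1.12. Of the 6 T and natural killer cell genes, 4 had a higher mean in endometrium. Of 4 tested eosinophil and mast cell genes 1, GATA2, was higher in endometrium, and of the 2 platelet and 3 erythroid genes none passed. MSR1, a scavenger receptor, and C1QA, a complement subunit, had log2 differences of 3.00 and 3.81 (limma adjusted p = 0.0823 and 0.135).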
